A study of Caenorhabditis elegans with 15 samples.

Results

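The comparison described here is that of *fbxa-215* deletion mutants with the wild-type strain N2 in young adult *Caenorhabditis elegans* hermaphrodites grown at 20 °C. Its members are the 8 RNA-seq libraries that the labels place at this temperature, 4 of *fbxa-215(syb4404)* mutants (strain SX3678) and 4 of N2, out of 15 young adult libraries in the series. The other 7 libraries, 3 of mutants and 4 of N2 grown at 25 °C, are used only to set the changes at 20 °C beside those at the higher temperature. Each library holds polyadenylated RNA of whole animals that were synchronized by bleaching, fed *Escherichia coli* HB101 and collected 48 h after plating at 20 °C (36 h at 25 °C). Mutants and N2 differ by the *syb4404* deletion, which covers the whole coding sequence of *fbxa-215*, and by whatever else distinguishes a single deletion strain, outcrossed to N2, from N2 itself. No second allele and no rescued strain is among these libraries. The labels do not say that replicates came from separate cultures, so the p-values below measure the spread between these libraries, which may be technical in part.

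F-box proteins are the interchangeable adaptors of SCF ubiquitin ligases. The F-box binds the SKP1-related subunit of the ligase, and the rest of the protein recruits the substrate that is to be ubiquitylated. The *C. elegans* genome carries a very large number of F-box genes, many of them grouped into the fbxa, fbxb and fbxc families, and *fbxa-215* is an unusual member because its protein also holds a helix-turn-helix domain related to that of Mariner transposases. Such domains bind DNA in transposases. The study asked whether losing this gene changes transcript levels in embryos and young adults. Its gel shift assays detected no binding of FBXA-215 or its helix-turn-helix domain to Mariner-related repeats. Tagged FBXA-215 was not seen in nuclei of the adult germ line. The study judged a clear and broad role of the gene in transcription unlikely, without excluding subtler ones.

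The libraries held between 12758070 and 28391869 counts in mutants and between 11458796 and 14298661 in N2, and mutant replicate 4 was the deepest. A floor of 3 counts lay between 0.101 and 0.237 CPM in mutants and between 0.21 and 0.272 CPM in N2, where CPM means counts per 1000000 of the TMM-normalized total of a library. Such floors cover counting error only. N2 replicates 2 and 3 stood apart from the other libraries. On the first principal component, with 40.7% of the variance, the mutants lay between -30.75 and -15.73, and N2 lay at 13.62, 45.69, 30.29 and -4.87, so that N2 replicate 4 was the closest to the mutants. The main counts over gene lists are therefore also given without N2 replicates 2 and 3, an alternative chosen after the data were seen. These were the N2 libraries farthest from the mutants on that component. Leaving them out by itself favours smaller differences and fewer calls, so that fit cannot decide whether a change is real. It also had fewer libraries, and the part of the library number in its fewer calls was not tested. The animals had the marker transcripts of young adults. Of 10 markers of early embryos, such as *end-1* and *med-1*, none passed the filter on low counts and 3 were at 0 in all 8 libraries, and markers of intestine, muscle, neurons, hypodermis and germ line were present in every library.

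The deleted gene was checked first. *fbxa-215* (WBGene00012879; chromosome IV, from 13665364 to 13666909 on the minus strand of WBcel235) had 0, 2, 0 and 0 counts in the mutant libraries, against 2297, 2031, 1567 and 1999 counts in N2. The strains did not overlap, and the level in mutants was at least 789.8-fold lower than in N2 when the floor of 3 counts per mutant library is put in place of the mutant values (2-sided exact permutation test of log2(CPM + 1), p = 0.0286, the smallest that 4 against 4 libraries allow). Its nearest tested neighbours did not pass the threshold. *Y45F10C.4* had a log2 fold change, here always mutants over N2, of 0.53 ± 0.21 (SE; edgeR FDR = 0.12) and *nyn-1* one of 0.04 ± 0.10 (edgeR FDR = 0.84). Among the 17 genes besides *fbxa-215* tested within 100 kb, 2 pseudogenes with low counts were called higher and no gene was called lower. These were WBGene00012870 and WBGene00007461, both named here after their values were seen. The call of the first, but not of the second, held in each of 8 fits that left out 1 library. Over all genes tested, 1.23% were called higher by the same thresholds, given below.

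Of 13127 genes tested, 162 were higher in mutants at a Benjamini-Hochberg false discovery rate (FDR) under 0.05 and a fold change above 2 (1.23% of the genes tested), and 33 were lower (0.251%). The 4 mutant libraries lay entirely on 1 side of the 4 N2 libraries for 140 of these rises and 32 of the falls, as they did for 20.9% of all genes tested. Without the fold threshold 1012 genes were higher (7.71%) and 757 lower (5.77%), with median absolute log2 fold changes of 0.59 among the higher and 0.35 among the lower genes. The median over all genes tested was 0.015. Over 2-fold, rises outnumbered falls, whereas at FDR alone the order depended on the fit. DESeq2 gave 1151 higher and 1206 lower genes, and an edgeR fit of all 15 libraries gave 1355 higher and 1391 lower. At FDR alone the higher genes had fewer counts than the lower ones. The median of the mean count in the higher strain was 302 counts for the 1012 higher genes and 995 counts for the 757 lower ones. The 195 genes past both thresholds comprised 140 protein-coding genes and 22 pseudogenes among the rises, and 28 protein-coding genes and 5 pseudogenes among the falls. Of the protein-coding rises 86 carried only a clone-based name with no assigned gene class. A total of 44 of the 195 belonged to 1 of 44 gene families or functional lists, which together held 1915 of the genes tested. Calls were found on all 6 chromosomes, between 0.943% (I) and 1.49% (II) of the genes tested for rises and between 0.135% (I) and 0.403% (V) for falls, so that neither direction was restricted to chromosome IV, which carries *fbxa-215*. At FDR alone, chromosome IV had the highest share of rises, 9.72%, where the other chromosomes lay between 6.06% (III) and 9.08% (X).

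**Figure D1:**
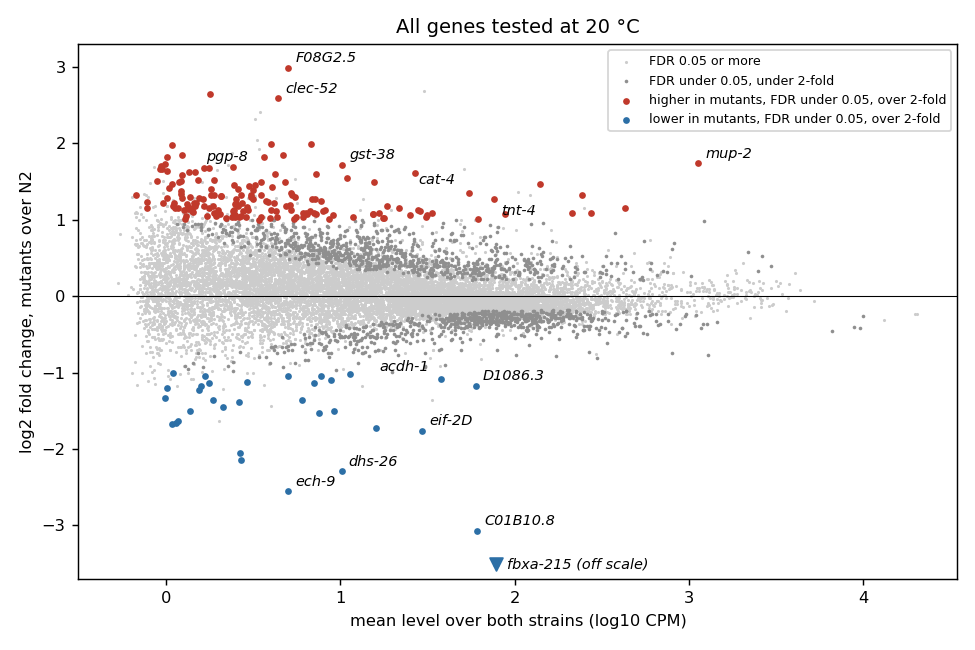
Log2 fold change of mutants over N2 (vertical axis) against the mean level over both strains (horizontal axis, log10 CPM) for the 13127 genes tested at 20 °C. Red and blue points are the 162 genes higher and the 33 lower in mutants at an FDR under 0.05 and a fold change above 2, and *fbxa-215*, drawn as a triangle at the lower edge, is off scale.

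Behind *fbxa-215*, the falls with the smallest p-values were those of *C01B10.8* and *eif-2D*, both connected with translation. *C01B10.8* (chromosome IV, from 6635089 to 6638155, plus strand) is *metl-13* in the current annotation, and its human relative METTL13 methylates the translation elongation factor eEF1A. It measured 11, 13.7, 13 and 14.1 CPM in mutants, against 107, 115, 111 and 106 CPM in N2, a log2 fold change of -3.07 ± 0.08 (SE; edgeR FDR = 1.4e-09). *eif-2D* (chromosome II, from 5691721 to 5693939, plus strand), whose product is an initiation factor that can bring tRNA to the small ribosomal subunit without eIF2, measured 13.2, 14.9, 13.3 and 12.3 CPM in mutants, against 45.4, 44, 46.5 and 45.2 CPM in N2 (log2 fold change -1.76 ± 0.08, edgeR FDR = 4.6e-07). Every mutant library lay far below every N2 library for both genes, and both kept their calls in each of the alternatives tried. *D1086.3*, a gene with no assigned function, was as uniform, with 40, 35.7, 37.9 and 33.5 CPM in mutants and 77.5, 84.5, 86.1 and 82.3 CPM in N2 (log2 fold change -1.17 ± 0.07, edgeR FDR = 7.8e-06). The eEF1A genes themselves moved little. *eef-1A.1* measured between 8533 and 9809 CPM in mutants and between 9989 and 11744 CPM in N2 (log2 fold change -0.26 ± 0.08, edgeR FDR = 0.044), and *eef-1A.2* had a log2 fold change of 0.43 ± 0.12 (edgeR FDR = 0.044) with overlapping libraries. Among 71 translation factors and tRNA synthetases tested, 2 were higher and 3 lower at FDR under 0.05. The call of *eif-3.C*, a subunit of the initiation factor eIF3, was the firmer of the rises, with 483, 506, 502 and 451 CPM in mutants against 369, 326, 294 and 351 CPM in N2 (log2 fold change 0.53 ± 0.08, edgeR FDR = 0.0032).

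Several other large falls were in enzymes of lipid and xenobiotic metabolism. *ech-9*, an enoyl-CoA hydratase family gene, measured 1.18, 1.27, 1.97 and 1.41 CPM in mutants, against 6.52, 5.6, 12.7 and 9.61 CPM in N2 (log2 fold change -2.55 ± 0.28, edgeR FDR = 0.00091). Part of its span overlaps another counted gene on the same strand. *dhs-26*, a short-chain dehydrogenase gene, had 3.08, 4.48, 5.16 and 1.55 CPM in mutants, against 11.3, 8.56, 14.2 and 33.2 CPM in N2 (log2 fold change -2.29 ± 0.56, edgeR FDR = 0.038). N2 replicate 4 was well above the other N2 libraries here, and the call did not hold in 6 of 8 fits with 1 library removed. *acdh-1*, the acyl-CoA dehydrogenase that starts the propionate shunt, a bypass of vitamin B12-dependent propionate breakdown, had 19.7, 30.7, 18.9 and 28 CPM in mutants, against 63.5, 66.4, 39.5 and 36.5 CPM in N2 (log2 fold change -1.08 ± 0.25, edgeR FDR = 0.03), and its call too did not hold in 6 of those 8 fits. The strains did not overlap for any of the 3 genes, but the rule that named them required this. Among the remaining large falls was *acd-1*, a degenerin channel gene of glia (log2 fold change -2.14 ± 0.33). *F07B7.2* (-2.05), *C50F7.5* (-1.53), *T24C4.4* (-1.51) and *H11L12.1* (-1.36) fell as well. Each of these genes kept its call in all of those 8 fits. *ugt-9*, a UDP-glucuronosyltransferase gene (-1.05 ± 0.26), and *pho-9*, an acid phosphatase gene (-1.04 ± 0.26), each lost the call in 4 of them. Of 39 genes that headed the ranking by size, 20 rises and 19 falls, 29 kept their calls in every fit without 1 library in which they were tested.

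**Figure D2:**
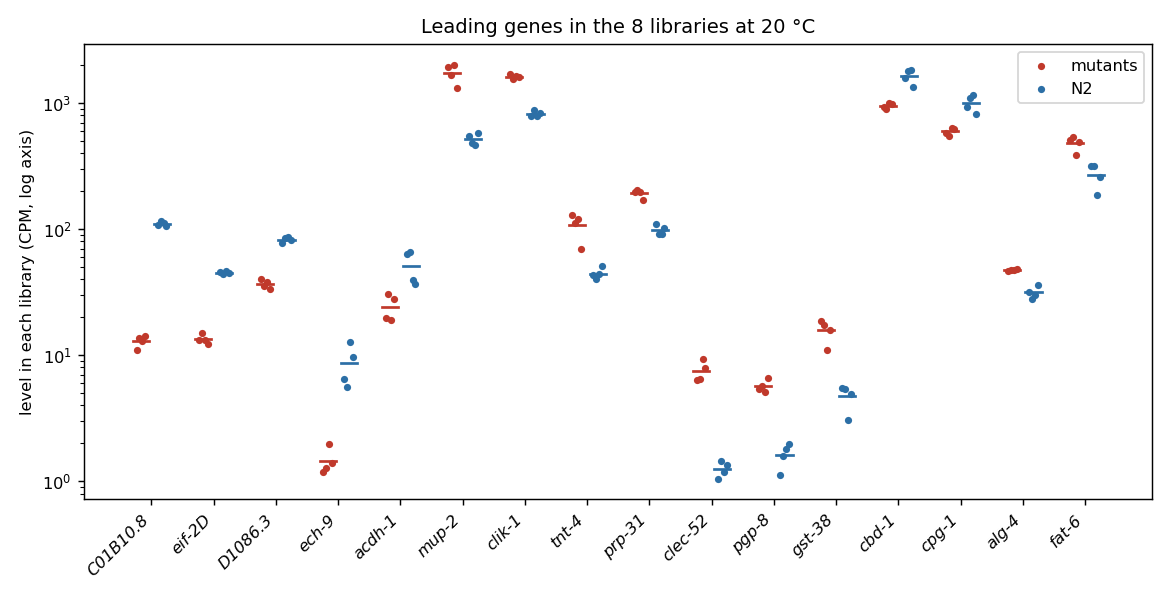
Level of 16 genes in each of the 8 libraries at 20 °C (CPM, log axis), with mutants in red to the left of N2 in blue for each gene, 1 point per library and a bar at the mean of 4. No gene shown has a mutant library inside the range of its N2 libraries, which was a condition for naming those among the largest changes. *C01B10.8*, *eif-2D*, *D1086.3* and *clik-1* show the smallest scatter relative to the step between strains.

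The largest rises included an abundant muscle transcript. *mup-2* (chromosome X, from 6408471 to 6410227, minus strand) encodes a troponin T of body wall muscle, part of the calcium switch on the thin filament. It measured 1932, 1667, 2011 and 1326 CPM in mutants, against 545, 484, 463 and 578 CPM in N2, a log2 fold change of 1.74 ± 0.13 (SE; edgeR FDR = 7.4e-05). The lowest mutant library was more than 2-fold above the highest N2 library, and *mup-2* and *clec-52* were the only rises that also passed when the null hypothesis was a change of up to 2-fold. Among 28 muscle filament genes tested, 10 were higher and 1 lower in mutants at FDR under 0.05, with a median log2 fold change of 0.25, beside 7.71% of all genes higher and a median of 0.015. The members that rose were largely thin filament regulators. They comprised the troponin T genes *mup-2*, *tnt-2* and *tnt-4*, the troponin I genes *tni-1* and *tni-4*, the troponin C genes *tnc-2* and *pat-10*, and *unc-87*, a calponin-like protein that binds actin. The other 2 were the myosin genes *myo-2* and *mlc-1*. *tnt-4*, described here after its values were seen, had 130, 111, 121 and 69 CPM in mutants, against 42.9, 40.1, 43.8 and 50.9 CPM in N2 (log2 fold change 1.27 ± 0.19, edgeR FDR = 0.0068). *unc-87* had 743, 688, 730 and 638 CPM in mutants, against 526, 533, 491 and 515 CPM in N2 (0.44 ± 0.07, edgeR FDR = 0.004). The main body wall myosin *unc-54* gave values on either side of the other strain, with a log2 fold change of -0.02 ± 0.12 (edgeR FDR = 0.91), and the summed body wall muscle markers lay between 4000 and 5263 CPM in mutants and between 4047 and 5365 CPM in N2. *act-2*, an actin gene, was the member that fell (-0.34 ± 0.08, edgeR FDR = 0.017). The count of rises in this list lay between 6 and 13 when 1 library was left out, and it was 4 without N2 replicates 2 and 3, where the median stayed at 0.22. Another calponin-like gene outside the list, *clik-1*, was among the 10 genes with the smallest p-values, at 1696, 1547, 1627 and 1602 CPM in mutants and 782, 885, 783 and 829 CPM in N2 (0.98 ± 0.07, edgeR FDR = 1.5e-05). A counted gene lies antisense to *clik-1*, and the libraries do not keep the strand.

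Pharynx markers rose in part. Their sum lay between 441 and 516 CPM in mutants and between 353 and 449 CPM in N2, so that the strains overlapped. Of the 5 that were tested, 3 (*myo-2*, *tnc-2* and *tni-4*) were higher at FDR under 0.05. All of these 3 are also counted in the muscle filament list. The transcription factor *pha-4*, which marks the pharynx but is no filament gene, had a log2 fold change of -0.00 (edgeR FDR = 0.99). In whole animals, a larger share of a tissue and more RNA per cell cannot be told apart.

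Genes of oocytes and the eggshell gave the largest share of calls of any list. Of 29 tested, 22 were lower in mutants at FDR under 0.05 and none was higher, with a median log2 fold change of -0.37, beside 5.77% of all genes lower. Every one of the 29 had a log2 fold change below 0, from -0.77 to -0.06. The largest was that of *cbd-1*, a chitin-binding protein of the eggshell, with 926, 901, 992 and 988 CPM in mutants, against 1565, 1779, 1826 and 1330 CPM in N2 (log2 fold change -0.77 ± 0.10, edgeR FDR = 0.0014). *cpg-1*, a chondroitin proteoglycan of the eggshell, had 583, 551, 631 and 623 CPM in mutants, against 935, 1103, 1162 and 818 CPM in N2 (-0.75 ± 0.10, edgeR FDR = 0.0026). *pos-1*, a zinc-finger RNA-binding protein that is loaded into the oocyte for use in the embryo, had 286, 294, 289 and 300 CPM in mutants, against 413, 424, 433 and 351 CPM in N2 (-0.47 ± 0.07, edgeR FDR = 0.004). The mutant libraries agreed closely with each other for all 3 genes, while N2 varied more and N2 replicate 4 was nearest the mutants. The others that fell span several steps of oocyte development. They included the RNA-binding regulators *oma-2* (-0.61), *mex-3* and *puf-5*, the yolk receptor gene *rme-2*, the chitin synthase gene *chs-1* and *egg-1* and *egg-2*, whose products lie on the oocyte surface and are needed for fertilization, all named here after their values were seen. The count moved when libraries were removed, with between 12 and 24 genes lower in the fits without 1 library and 9 without N2 replicates 2 and 3, but the median in the last of these was -0.32.

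The yolk proteins, which the intestine makes and oocytes take up through *rme-2*, also included falls. *vit-1*, *vit-3* and *vit-4* passed FDR under 0.05 among 6 vitellogenin genes, and all 6 had log2 fold changes between -0.46 and -0.23. *vit-1* measured 5530, 5114, 6338 and 5182 CPM in mutants, against 7103, 7893, 8137 and 7288 CPM in N2 (-0.46 ± 0.08, edgeR FDR = 0.0087). Vitellogenin transcripts are similar in sequence, so reads may have been divided among them. No call of a vitellogenin was left without N2 replicates 2 and 3, where their median was -0.22.

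Genes of germ granules and small RNA pathways were also lower more often than higher, with 15 of 73 lower, beside 5.77% of all genes, and 2 higher, or 2.74% of the list beside 7.71% of all genes (median log2 fold change -0.16). *meg-1*, which helps to organize P granules in the embryo, had 68.7, 70.7, 72 and 87.8 CPM in mutants, against 117, 146, 147 and 103 CPM in N2 (-0.77 ± 0.12, edgeR FDR = 0.0055). Its relative *meg-3* (-0.56 ± 0.09, edgeR FDR = 0.0054) and *hrde-1*, a nuclear Argonaute of inherited silencing (-0.42 ± 0.08, edgeR FDR = 0.01), fell as well. The 2 that rose were *alg-3* and *alg-4*, Argonautes known for their role in spermatogenesis. *alg-4* measured 46.2, 47.4, 47.1 and 48.2 CPM in mutants, against 32, 27.9, 29.8 and 36.2 CPM in N2 (0.59 ± 0.09, edgeR FDR = 0.0033). Neither overlapped between strains. Of the 15 falls, 1 was still called without N2 replicates 2 and 3, as was 1 of the rises.

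Sperm genes gave calls in the other direction. Among 60 genes of the spe, ssp, nspd and related sperm families, 13 were higher and none lower at FDR under 0.05, with a median log2 fold change of 0.36, beside 7.71% of all genes higher. *spe-4*, a presenilin-family gene needed to complete spermatogenesis, had 11.4, 13.2, 11.3 and 14.6 CPM in mutants, against 7.71, 6.08, 7.17 and 8.82 CPM in N2 (0.76 ± 0.14, edgeR FDR = 0.0092). *ssp-16* (0.57 ± 0.12, edgeR FDR = 0.016) and *F32A11.3*, *spe-18* in the current annotation (0.45 ± 0.10, edgeR FDR = 0.016), were the next by p-value. The libraries of the strains overlapped for the list as a whole. As the mean over members of log2(CPM + 1) relative to the mean of the 8 libraries, it stood at 0.295, 0.246, 0.211 and -0.102 in mutants and at -0.065, -0.411, -0.310 and 0.135 in N2, so that mutant replicate 4 and N2 replicate 4 overlapped the other strain. No sperm gene was called without N2 replicates 2 and 3 (median 0.14), and the 28 major sperm protein genes, near-identical in sequence, gave no call, with a median of 0.15. Genes of meiotic synapsis gave 2 falls among 25 (8%, beside 5.77% of all genes), *him-17* (-0.34 ± 0.07, edgeR FDR = 0.012) and *zhp-3* (-0.35 ± 0.11, edgeR FDR = 0.047), and a median of -0.14.

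The oocyte and germ line markers moved with these lists. Summed oocyte markers measured 4074, 3892, 4334 and 4046 CPM in mutants, against 5740, 6286, 6256 and 5078 CPM in N2, and 6 of the 8 markers, all of which belong to the oocyte list above, fell. Summed germ line markers lay between 2791 and 2866 CPM in mutants and between 2936 and 3368 CPM in N2. The strains did not overlap for either sum. Summed sperm markers lay between 800 and 907 CPM in mutants and between 702 and 835 CPM in N2. The strains overlapped for this sum, and 1 of the 10 sperm markers was higher at FDR under 0.05. *mex-5* and *nos-2*, which are expressed late in oogenesis, were the germ line markers that fell, while *glp-1*, *him-3*, *htp-3*, *glh-1* and *pgl-1* did not pass the test. The share of each germ cell type in the animals was not measured, and its part in these changes was not tested.

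**Figure D3:**
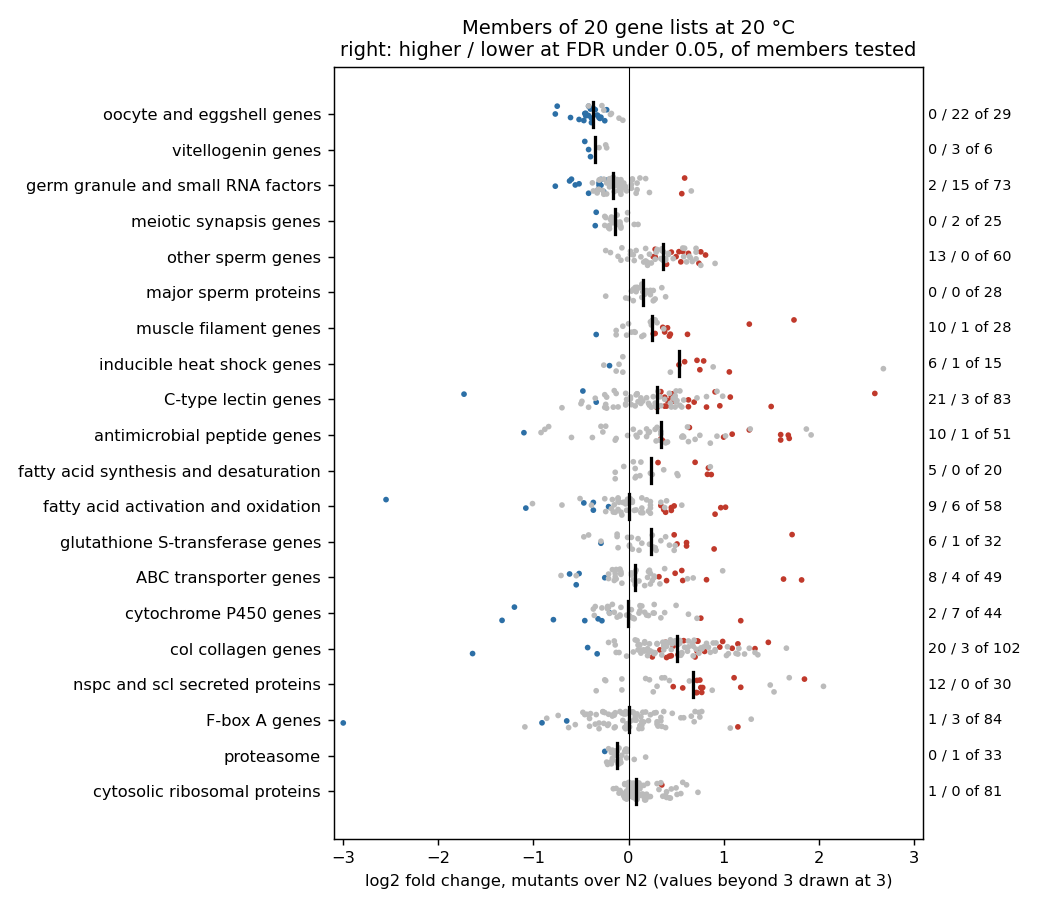
Log2 fold change of mutants over N2 for each tested member of 20 gene lists at 20 °C. Each point is a gene, red where it was higher and blue where it was lower at FDR under 0.05, grey otherwise, and the black bar is the list's median. The oocyte and eggshell list lies entirely left of 0 (22 of 29 lower) and the nspc and scl list (12 of 30 higher) and col collagens (20 of 102 higher) mostly right of it.

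Inducible heat shock genes included 6 rises and 1 fall among 15 tested, with a median log2 fold change of 0.53. The rises made up 40% and the fall 6.67%, beside 7.71% higher and 5.77% lower of all genes. The smallest p-value was that of *dnj-9*, a J-domain co-chaperone of HSP70, with 95.8, 91.6, 89.6 and 88.7 CPM in mutants, against 57.4, 53.8, 42.6 and 57 CPM in N2 (0.79 ± 0.09, edgeR FDR = 0.00092). *unc-23*, a BAG-domain co-chaperone required for the attachment of body wall muscle, had 37.1, 47.8, 29.6 and 56.2 CPM in mutants, against 21.1, 21.6, 17.6 and 21.9 CPM in N2 (1.06 ± 0.18, edgeR FDR = 0.0085). *hsp-43*, a small heat shock protein, had a log2 fold change of 0.59 ± 0.09 (edgeR FDR = 0.0036). For these 3 genes every mutant library was above every N2 library. The classical stress reporters rose less evenly. *hsp-70* (0.53 ± 0.13) and *hsp-16.2* (0.75 ± 0.21) did not overlap between strains and *hsp-16.11* did, and *hsf-1*, the heat shock transcription factor, was slightly lower, at 61, 60.3, 61.9 and 58.1 CPM in mutants against 70.7, 72.2, 66.9 and 67 CPM in N2 (-0.20 ± 0.06, edgeR FDR = 0.048, a call lost in 7 of the 8 fits without 1 library). Without N2 replicates 2 and 3, 2 of the 6 rises were called and the median was 0.22. Among 60 other chaperones, 4 rose and 4 fell, with a median of -0.10. *dnj-9* is a member of both lists.

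Of the families that respond to pathogens and to the environment, the C-type lectins gave the largest number of calls. These are secreted or membrane proteins with sugar-binding folds, many of them induced by infection. Among 83 tested, 21 were higher (25.3%, beside 7.71% of all genes) and 3 lower (3.61%, beside 5.77%) at FDR under 0.05, with a median log2 fold change of 0.30. *clec-52* (chromosome IV, from 8167164 to 8168760, minus strand) measured 6.32, 6.49, 9.4 and 7.94 CPM in mutants, against 1.05, 1.44, 1.18 and 1.34 CPM in N2 (2.59 ± 0.20, edgeR FDR = 5.4e-05), and *clec-160* 42.7, 44.8, 39.4 and 44.3 CPM in mutants, against 24.9, 28.7, 21.2 and 21.9 CPM in N2 (0.82 ± 0.10, edgeR FDR = 0.0013). *clec-3* was also higher (edgeR FDR = 0.0025). The 3 that fell were *clec-4* (-1.73 ± 0.46, edgeR FDR = 0.049), *clec-87* and *clec-88*. The call of *clec-4* was lost in 6 of the 8 fits without 1 library, those of the others in none. *clec-87* measured 437, 453, 465 and 466 CPM in mutants, against 614, 695, 665 and 561 CPM in N2 (-0.48 ± 0.07, edgeR FDR = 0.0041), and its product, like that of *clec-88*, is known as a chondroitin proteoglycan. The list kept its median, at 0.31, without N2 replicates 2 and 3, with 4 rises and 2 falls still called.

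Antimicrobial peptide families gave 10 rises (19.6%, beside 7.71% of all genes) and 1 fall among 51 tested (median log2 fold change 0.34). The fungus-induced-related genes *fipr-7*, *fipr-10* and *fipr-11* and the saposin-like gene *spp-18* were higher, *spp-18* at 24.4, 28.3, 14.5 and 24.1 CPM in mutants against 11.6, 9.69, 9.89 and 11.7 CPM in N2 (1.09 ± 0.18, edgeR FDR = 0.0058). *fipr-22* was lower (-1.10 ± 0.31, edgeR FDR = 0.048). The fipr genes are short, alike and clustered, so that reads may have been assigned to the wrong copy, and *fipr-10* and *fipr-11* have an antisense neighbour. No member was called without N2 replicates 2 and 3 (median 0.22), and N2 replicate 4 lay within the mutant range for the list as a whole. Infection response genes gave 4 rises among 16 (25%), *irg-3*, *irg-4*, *irg-5* and, outside the naming rule, the MAP kinase kinase kinase gene *nsy-1*. *irg-4* measured 18.4, 14.4, 19.3 and 16.5 CPM in mutants, against 8.27, 9.05, 8.53 and 10.4 CPM in N2 (0.92 ± 0.13, edgeR FDR = 0.0026). The dod genes, defined as downstream of the insulin-regulated factor DAF-16, gave 4 rises among 9 (44.4%), of which *dod-17* had 65.3, 60.9, 48.8 and 70.9 CPM in mutants, against 31.6, 29.9, 32.9 and 29.1 CPM in N2 (0.99 ± 0.11, edgeR FDR = 0.00084), and *dod-19* a log2 fold change of 0.94 ± 0.15 (edgeR FDR = 0.0069). Without N2 replicates 2 and 3, 1 infection response gene and 3 dod genes were called higher. Lysozymes gave no rise and 1 fall among 8 (*lys-3*, with few counts, named after its value was seen), and the pals genes, linked to intracellular infection, gave 1 rise among 12 (*pals-23*, 0.57 ± 0.16, edgeR FDR = 0.036). Many of these genes are expressed in the intestine. The summed intestine markers lay between 4063 and 4764 CPM in mutants and between 3454 and 4262 CPM in N2, and 2 of 9, *ifb-2* (0.65 ± 0.12) and *elt-2* (0.92 ± 0.21), were higher. Their part in the rises was not tested.

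**Figure D4:**
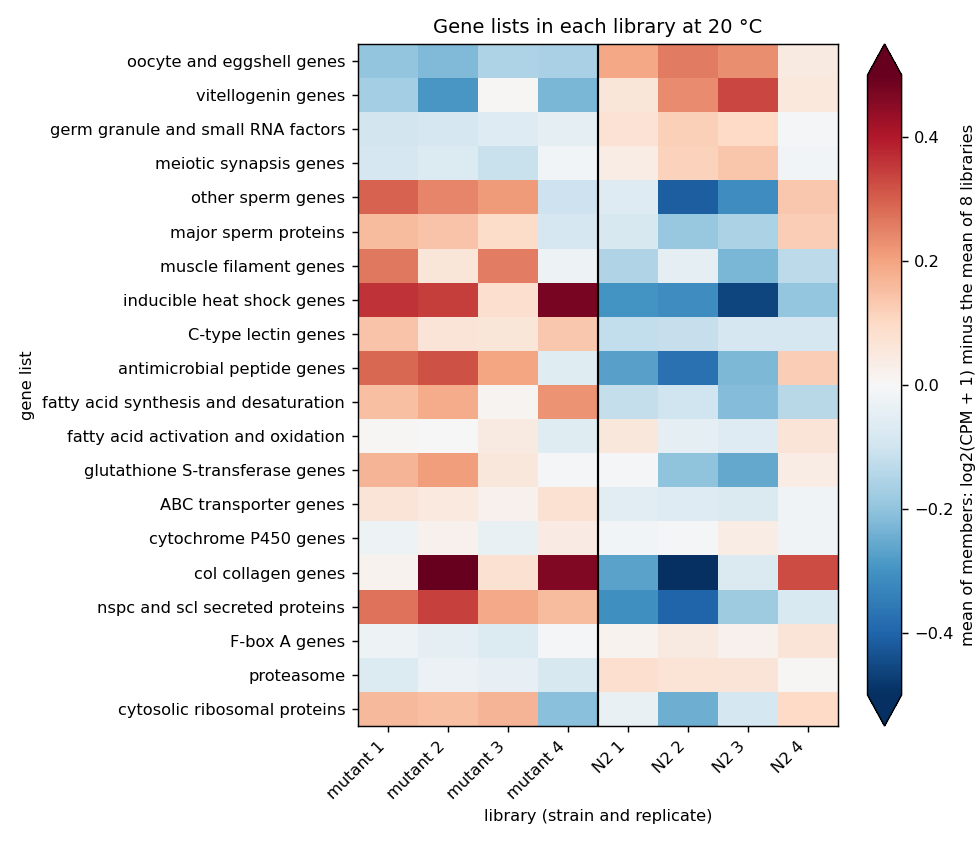
Mean over the tested members of 20 gene lists of log2(CPM + 1), relative to the mean of the 8 libraries, in each library (color scale, limited to 0.5 in either direction), with mutants left of the black line and N2 right of it. The oocyte list separates the strains in every library, while the sperm, antimicrobial peptide and col collagen lists have N2 replicate 4 on the mutant side.

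In lipid metabolism, calls among synthesis genes were all rises, while those among oxidation genes went in both directions. Of 20 genes of fatty acid synthesis and desaturation, 5 were higher (25%, beside 7.71% of all genes) and none lower (median log2 fold change 0.24). *fat-6*, a stearoyl-CoA desaturase that makes oleate, had 507, 537, 385 and 495 CPM in mutants, against 314, 318, 186 and 261 CPM in N2 (0.83 ± 0.17, edgeR FDR = 0.02), and *pod-2*, acetyl-CoA carboxylase, 553, 520, 491 and 544 CPM in mutants against 459, 436, 382 and 430 CPM in N2 (0.31 ± 0.07, edgeR FDR = 0.02). The fatty acid elongases *elo-4*, *elo-7* and *elo-8* were the other 3. Of 58 genes of fatty acid activation and oxidation, 9 were higher (15.5%) and 6 lower (10.3%, beside 5.77% of all genes), and the median was 0.00. The rises included *ech-7* (0.91 ± 0.14, edgeR FDR = 0.0056), the peroxisomal acyl-CoA oxidase gene *acox-1.5* (1.02 ± 0.19, edgeR FDR = 0.01) and the carnitine palmitoyltransferase gene *cpt-4* (0.97 ± 0.20, edgeR FDR = 0.012). The falls included *ech-9* and *acdh-1*, described above, *acdh-7* and *acs-19*, an acetyl-CoA synthetase family gene that measured 321, 318, 364 and 327 CPM in mutants, against 511, 485, 400 and 445 CPM in N2 (-0.47 ± 0.08, edgeR FDR = 0.007). Lipases and lipid-binding proteins gave 3 rises among 27 (11.1%, beside 7.71% of all genes), the fatty acid and retinol binding genes *far-6*, *far-7* and *far-8*. Without N2 replicates 2 and 3, 1 synthesis gene, no oxidation gene and no lipid-binding gene was called higher, and 2 oxidation genes were called lower.

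Detoxification genes did not move as a block. Glutathione S-transferases gave 6 rises (18.8%, beside 7.71% of all genes) and 1 fall among 32 (median log2 fold change 0.24). They were led by *gst-38* at 18.8, 17.3, 11.1 and 15.8 CPM in mutants against 5.54, 5.36, 3.09 and 4.96 CPM in N2 (1.72 ± 0.20, edgeR FDR = 0.0011). The fall was that of *gst-4*, a common reporter of oxidative stress (-0.29 ± 0.08, edgeR FDR = 0.038). The rises numbered 3 to 9 when 1 library was left out and 1 without N2 replicates 2 and 3, where the median was 0.07. ABC transporters gave 8 rises (16.3%) and 4 falls (8.16%) among 49. The P-glycoprotein gene *pgp-8* had 5.37, 5.67, 5.16 and 6.59 CPM in mutants, against 1.12, 1.6, 1.82 and 1.97 CPM in N2 (1.82 ± 0.20, edgeR FDR = 0.00084), whereas *mrp-4*, an MRP-type transporter gene, had 114, 115, 117 and 116 CPM in mutants, against 176, 179, 170 and 152 CPM in N2 (-0.55 ± 0.06, edgeR FDR = 0.00092). Without N2 replicates 2 and 3, 1 transporter was called in each direction. Cytochrome P450 genes gave 2 rises (*cyp-14A5* and *cyp-36A1*) and 7 falls among 44, with a median of -0.01. The rises made up 4.55%, beside 7.71% of all genes, and the falls 15.9%, beside 5.77%. The falls numbered 1 to 6 when 1 library was left out, and no P450 gene was called without N2 replicates 2 and 3, where the median was 0.05. Among the falls were *cyp-31A3* (-0.32 ± 0.06, edgeR FDR = 0.012), known for its role in making lipids of the eggshell, and *cyp-31A5* (-0.28 ± 0.07, edgeR FDR = 0.025). UDP-glucuronosyltransferases gave 3 rises and 3 falls among 52, short-chain dehydrogenases 1 of each among 27, and nuclear hormone receptors 6 rises and 5 falls among 168, both of the last counts below the background shares. The steadiest of the receptors was *nhr-5*, at 28.2, 26, 25 and 29.4 CPM in mutants against 18.6, 17, 14.4 and 16.4 CPM in N2 (0.71 ± 0.10, edgeR FDR = 0.0032).

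Secreted and cuticle proteins held many of the smaller rises. Cuticle collagens of the col family gave 20 rises (19.6%, beside 7.71% of all genes) and 3 falls among 102. Of the 102, 93 had a log2 fold change above 0 (median 0.51). *col-147* had 593, 659, 462 and 642 CPM in mutants, against 252, 201, 274 and 334 CPM in N2 (1.15 ± 0.16, edgeR FDR = 0.0049), and *col-81* 2829, 2798, 2510 and 2316 CPM in mutants against 1874, 1460, 1673 and 1969 CPM in N2 (0.58 ± 0.10, edgeR FDR = 0.0066). The falls were *col-101* (-0.43 ± 0.09, edgeR FDR = 0.017), *col-143* and, with few counts, *col-158*. The libraries of the strains overlapped for the collagens as a group. Their mean relative to the 8 libraries stood at 0.019, 0.574, 0.076 and 0.463 in mutants and at -0.267, -1.120, -0.074 and 0.328 in N2. Only 2 were called higher without N2 replicates 2 and 3, the median then being 0.21, and the 14 body shape collagens tested (*dpy-*, *sqt-* and related genes) gave no call with all libraries (median 0.41) and a median of -0.31 without those N2 libraries. The summed adult cuticle markers lay between 2067 and 3034 CPM in mutants and between 1324 and 2294 CPM in N2, and the summed markers of molting larvae between 48.7 and 52.7 CPM in mutants and between 44.7 and 65.1 CPM in N2. Differences in the stage of collection within young adulthood were not tested.

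The nspc and scl families of small secreted proteins gave a larger share of rises. Here 12 of 30 were higher (40%, beside 7.71% of all genes) and none lower (median log2 fold change 0.68). *nspc-10* measured 21.4, 22.4, 21.5 and 20.8 CPM in mutants, against 12.6, 12.6, 13.8 and 13.2 CPM in N2 (0.72 ± 0.09, edgeR FDR = 0.0015), and *nspc-14* was close to it (0.72 ± 0.12, edgeR FDR = 0.0059). The nspc genes are near copies of each other, so the counts of single members are uncertain. *vap-1*, a venom-allergen-like gene of the same list, had a log2 fold change of 0.71 ± 0.13 (edgeR FDR = 0.0086), and its relative *vap-2*, 1 of the 10 genes with the smallest p-values, had 81.4, 81.7, 92.7 and 86.1 CPM in mutants, against 47.5, 46.8, 54 and 52.1 CPM in N2 (0.77 ± 0.07, edgeR FDR = 0.0003). Transthyretin-related genes, another secreted family, gave 6 rises (11.8%) and 1 fall among 51 (median 0.20). Without N2 replicates 2 and 3, 3 of the nspc and scl list and none of the transthyretin-related genes were called, with medians of 0.52 and 0.13.

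Among the remaining leading genes, those with the largest rises were poorly characterized. *F08G2.5* measured 8.77, 13.1, 3.41 and 10.5 CPM in mutants, against 1.12, 1.28, 0.545 and 1.5 CPM in N2 (log2 fold change 2.99 ± 0.43, edgeR FDR = 0.0054), and *Y37H2A.14* 3.24, 3.28, 1.97 and 3.84 CPM in mutants against 0.491, 0.32, 0.454 and 0.709 CPM in N2 (2.64 ± 0.31, edgeR FDR = 0.0011). The strains did not overlap for either gene, as the rule that named them required. A group of 4 neighbours on chromosome II, *F01D5.1*, *F01D5.2*, *F01D5.3* and *F01D5.5*, within the span from 13996958 to 14002300, rose together, with log2 fold changes of 1.27, 1.99, 1.06 and 1.99, and all 4 genes tested in that span were called. *F01D5.2* and *F01D5.3* overlap by their ends on the same strand. Runs of at least 3 called genes less than 10 kb apart were found at 2 other places, on chromosomes III and IV, and all of their called genes rose as well. These groups were looked for after the data were seen. *prp-31*, a splicing factor of the U4/U6-U5 particle, was by contrast an abundant housekeeping gene that rose in every library, with 198, 206, 196 and 170 CPM in mutants, against 110, 92.3, 91.4 and 103 CPM in N2 (0.96 ± 0.08, edgeR FDR = 0.0001), and *C14C6.5* rose to a like degree (0.96 ± 0.09, edgeR FDR = 0.00029).

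Most lists of the ubiquitin system gave few calls, beside 7.71% of all genes higher and 5.77% lower. The 84 F-box A genes tested had a median log2 fold change of 0.01. At FDR under 0.05, 1 was higher (1.19%) and 3 lower (3.57%), counting *fbxa-215*. The others were *fbxa-170* (-0.65 ± 0.19, edgeR FDR = 0.046) and, outside the naming rule, *fbxa-105* and *fbxa-125*, with few counts. *fbxa-192* and *fbxa-210*, F-box genes that the study names beside *fbxa-215*, did not pass the test. *fbxa-192* had 21.1, 22.5, 23.5 and 23.4 CPM in mutants, against 26.9, 22.7, 27.5 and 28.5 CPM in N2 (-0.22 ± 0.09, edgeR FDR = 0.13), and *fbxa-210* 31.3, 27.7, 28.9 and 33.3 CPM in mutants against 35.1, 37.9, 34.2 and 32.8 CPM in N2 (-0.21 ± 0.08, edgeR FDR = 0.12). Both sets of libraries overlapped. F-box B and C genes gave 2 rises and 2 falls among 17, or 11.8% in each direction, above both shares of all genes. MATH and BTB genes, which serve as adaptors of cullin 3 ligases, gave 3 rises (5.45%) and 2 falls (3.64%) among 55. The SCF and cullin core gave 1 of each among 32 (3.12%). The core members were *skr-3*, a SKP1-related gene, with 31.6, 38.3, 29.6 and 41.7 CPM in mutants, against 24.8, 25.7, 24 and 24.4 CPM in N2 (0.52 ± 0.11, edgeR FDR = 0.014), and *sel-10*, an F-box gene (-0.22 ± 0.05, edgeR FDR = 0.025). Of 33 proteasome subunits, *rpn-1* alone passed, and fell (-0.25 ± 0.06, edgeR FDR = 0.024).

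Most other families were also near or below the background shares of 7.71% higher and 5.77% lower. Cytosolic ribosomal proteins gave 1 call among 81 (*rpl-11.2*, 0.35 ± 0.06, edgeR FDR = 0.0085) and respiratory chain and ATP synthase subunits none among 53, with medians of 0.08 and 0.01. There were 3 rises among 95 neuropeptide and insulin genes, of which 86 had a log2 fold change above 0 (median 0.24). Histones gave 1 rise (*his-70*) and 1 fall (*his-68*) among 38 (median -0.35), and abu and pqn genes 4 of each among 54. Above the shares were patched-related genes, with 2 rises and 2 falls among 20 (10% in each direction), and astacin metalloproteases, with 2 rises among 20 (10%). Cuticlins and molting factors gave 1 rise among 26, and hedgehog-related genes gave no call among 23. The 43 genes tested with names of the chemoreceptor classes gave 3 rises and 1 fall, but the fall was *srgp-1*, a GTPase-activating protein whose symbol only resembles theirs, and *pqn-60* and *pqn-98* among the rises also belong to the abu and pqn list, which leaves *str-176* (all named after their values were seen). Histone transcripts mostly lack poly(A) tails, so their values in polyadenylated RNA are not their levels.

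Set beside the comparison at 25 °C, which shares no library with it, most called genes had the same sign. Of the 162 rises, 159 were tested at 25 °C and 145 of them (91.2%) were above 0 there, and of the 33 falls, 29 were tested and 28 (96.6%) were below 0, where 57.4% of all 12977 genes tested at both temperatures had matching signs. Over these 159 genes the median log2 fold change was 0.50 at 25 °C and 1.21 at 20 °C, and over the 29 falls it was -1.13 at 25 °C and -1.36 at 20 °C. The genes were chosen for a change over 2-fold at 20 °C, a choice that by itself favours larger values there, so these medians are no test of a difference between temperatures. A genotype by temperature interaction term, fitted over all 15 libraries, passed FDR under 0.05 for 205 of 14000 genes (1.46%). It did so for 9 of the 162 rises and for none of the 33 falls. It did not pass for *eif-2D* (-1.67 at 25 °C), *ech-9* (-2.62), *clik-1* (0.90), *tnt-4* (1.46) or *pgp-8* (1.87). Nor did it for *C01B10.8* (-2.58, interaction FDR = 0.055) or *mup-2* (1.15, interaction FDR = 0.054), both close to the threshold. *gst-38* (0.39 at 25 °C, interaction FDR = 0.027) and *Y37H2A.14* (0.32 at 25 °C, interaction FDR = 0.019) rose more at 20 °C. The oocyte list had a median of -0.12 at 25 °C, and the interaction passed for *cbd-1* (-0.09 at 25 °C, interaction FDR = 0.032), *cpg-1* (0.06 at 25 °C, interaction FDR = 0.031) and *oma-2* (-0.02 at 25 °C, interaction FDR = 0.034). The sperm list had a median of -0.13 at 25 °C, and 4 of its 60 genes passed the interaction, among them *ssp-16* (-0.36 at 25 °C, interaction FDR = 0.023) and *F32A11.3* (-0.09 at 25 °C, interaction FDR = 0.041). In the germ granule and small RNA list 2 of 73 genes did, *alg-4* (0.03 at 25 °C, interaction FDR = 0.036) and *meg-1* (0.05 at 25 °C, interaction FDR = 0.031). The nspc and scl list (0.83) and the muscle filament list (0.37) had medians at 25 °C at least as large as at 20 °C. Some other lists with rises at 20 °C had medians near or below 0 at 25 °C. These were 0.01 for C-type lectins, where 8 of 83 genes passed the interaction, -0.14 for antimicrobial peptides, -0.40 for dod genes and -0.10 for glutathione S-transferases. The median at 25 °C stayed above 0 for col collagens (0.38), inducible heat shock genes (0.25), fatty acid synthesis and desaturation (0.21) and infection response genes (0.16). The number of genes past the interaction test lay between 12 and 1604 when 1 of the 15 libraries was left out.

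**Figure D5:**
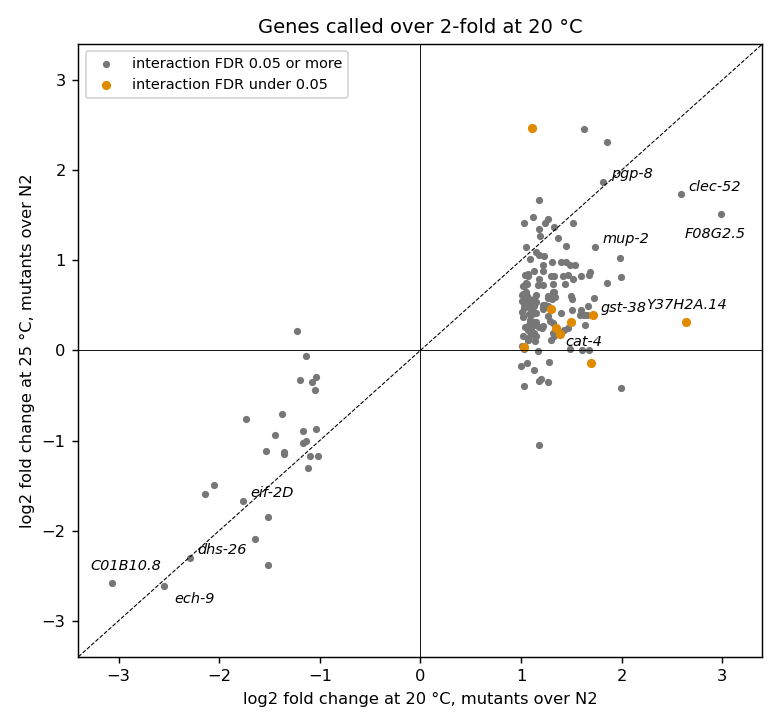
Log2 fold change of mutants over N2 at 25 °C (vertical axis) against that at 20 °C (horizontal axis) for the 187 genes called over 2-fold at 20 °C and also tested at 25 °C, *fbxa-215* left out. Orange points are the 9 genes whose change differed between temperatures (interaction FDR under 0.05), and the dashed line marks equal change.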

How the data were processed

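Poly(A) RNA of whole animals was sequenced without keeping the strand, and per the labels and the study's methods the authors trimmed reads with Trimmomatic 0.39 and quantified transcripts with Salmon 1.5.1 on WBcel235, so the deposited values are estimated counts per gene. Other deposited tables hold log2 expression values, fold changes and p-values that the authors computed with DESeq2, and only gene symbols were taken from them. Estimated counts were rounded to whole numbers. Genes were kept by filterByExpr (at least 10 counts in enough libraries, 15 in total), scaled by TMM and tested with edgeR 4.0.16 (robust quasi-likelihood F-test, R 4.3.3) on the 8 libraries at 20 °C, with Benjamini-Hochberg adjustment over 13127 genes. SE is the absolute log2 fold change divided by the square root of F. The interaction was fitted on all 15 libraries. DESeq2 1.42.0, other scalings, filters and left-out libraries were alternatives. The procedure was tested on simulated counts.

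Named genes were *fbxa-215* and the genes the study names with it, the 20 largest non-overlapping changes over 2-fold in each direction averaging 50 counts or more in the strain with more, the 3 smallest p-values per direction in each of 44 lists (same minimum), and the 10 smallest overall. Other list members, neighbours and markers were named after their values were seen. The comparison, the lists and the markers were chosen with earlier results of these data known. Of 21882 genes in the tables, 21714 were found in the annotation. Overlapping, antisense and near-identical genes can share reads.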

Additional observations from a re-analysis of the deposited data

Results flagged for a closer look

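In 288 groups of 4 libraries (143 printed genes and the total counts, each strain apart), 18 held a library far from the other 3, where chance alone gives about 1 in 20. The total of mutant replicate 4 was 28391869 counts. Mutant replicate 4 was also the distant one for *glh-1* (418 CPM), *pgl-1* (430 CPM), *him-17* (98.2 CPM), *meg-1* (87.8 CPM), *srgp-1* (153 CPM) and *his-70* (4.54 CPM). In mutants, replicate 3 stood apart for *cpt-4* (11.7 CPM) and replicate 2 for *hach-1* (91.4 CPM). In N2, replicate 3 stood apart for *acd-1* (7.71 CPM), *dod-19* (62.9 CPM), *far-6* (55.5 CPM) and *tnt-2* (584 CPM), and replicate 2 for *col-143* (775 CPM). N2 replicate 4 did so for *fipr-10* (6.77 CPM), *him-3* (78.5 CPM), *ssp-16* (20.9 CPM) and *ugt-9* (10.7 CPM).

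Of the 143 printed genes, 13 had a change in mutants that differed between 20 and 25 °C by the interaction test. On the log2 scale the change at 20 °C minus that at 25 °C was positive for *Y37H2A.14* (2.30), *gst-38* (1.31), *cat-4* (1.08), *ssp-16* (0.92), *clec-160* (0.61), *alg-4* (0.54) and *F32A11.3* (0.52). It was negative for *meg-1* (-0.84), *cpg-1* (-0.83), *cbd-1* (-0.69), *oma-2* (-0.61), *mex-5* (-0.49) and *act-2* (-0.47). Their interaction FDRs lay between 0.019 (*Y37H2A.14*) and 0.049 (*cat-4*).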

How the results depend on the processing

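All 162 rises and 33 falls over 2-fold kept their direction in every fit that tested them, but the counts moved with the libraries used. Without 1 library the rises over 2-fold numbered 82 to 264 and the falls 20 to 40, and 50 of the 162 and 16 of the 33 were called in each of the 8 such fits. At FDR under 0.05 alone, 369 to 1161 genes were higher and 206 to 1084 lower in those fits. Leaving out N2 replicates 2 and 3 was chosen after the data were seen. The counts were then 28 and 11 over 2-fold and 110 and 63 at FDR alone. Of these, 21, 11, 105 and 63 were calls with all libraries. That fit had fewer samples and lacked the N2 libraries farthest from the mutants on the first principal component. With a null hypothesis of up to 2-fold change the test called 2 rises and 4 falls. Falls numbered 20 over 2-fold where every library needed at least 10 counts, which removes genes low in mutants. At FDR alone, DESeq2 gave 1151 rises and 1206 falls, a fit of all 15 libraries 1355 and 1391, and library size alone 1060 and 484, so that falls outnumbered rises in the first of these fits and in that of 15 libraries, and the cause was not tested. The interaction passed for 205 genes, 338 with at least 10 counts in every library, and 12 to 1604 without 1 library. Replicate numbers are shared between strains, but the correlations of same-numbered libraries' deviations were 0.152, -0.288, -0.069 and -0.163, so the numbers pair nothing here. With a replicate block the rises numbered 95 over 2-fold and 364 at FDR alone, and the falls 22 and 180. Of 167 named genes none reversed. Leaving aside the null hypothesis of up to 2-fold change, 52 kept their status, called or not called, in every alternative that tested them. Without N2 replicates 2 and 3, 112 lost their call. Depth limits genes near 10 counts.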

Other observations

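*cat-4*, GTP cyclohydrolase I, belonged to no list and was described after its values were seen. It measured 96.8, 82.3, 71 and 63.4 CPM in mutants, against 34.1, 26.5, 24.7 and 37.5 CPM in N2 (log2 fold change 1.35 ± 0.16, edgeR FDR = 0.0026). The strains did not overlap, and a counted gene lies antisense to it.

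The other enzymes of the propionate shunt, which *acdh-1* starts, were looked up after its values were seen. *hach-1* was also lower in mutants (-0.30 ± 0.08, edgeR FDR = 0.037), while *ech-6* (-0.08), *hphd-1* (-0.04) and *alh-8* (0.02) did not pass the test.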
